A study of Dunaliella tertiolecta UTEX 'LB 999' with 2 samples.

Results

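Sm and LSm proteins are small RNA-binding proteins that assemble into rings around RNA. The Sm ring forms the core of the spliceosomal particles that hold the U1, U2, U4 and U5 RNAs, and a nuclear LSm ring binds the end of U6 RNA. A second LSm ring, which shares most of its subunits with the nuclear one, acts in the cytoplasm, where it promotes decapping and decay of messenger RNA. These roles are known from yeast and human cells and are given as background.

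The contigs described here are those named LSM7, LSM2, SMPF or SMP8, or described as a small nuclear ribonucleoprotein, in lists of transcripts that differed between 8 h and 4 h after a rise in light. They are 4 of 234 listed contigs, and the names and the description chose the same 4. The RNA came from the unicellular green alga Dunaliella tertiolecta, strain UTEX LB-999. Cells for both time points grew at 25 °C in a chemostat, a culture kept at steady state by constant inflow, in medium with 0.5 M NaCl. The light was 40 µmol photons m-2 s-1 and was then set to 400 µmol photons m-2 s-1, and 1 library was made 8 h and 1 library 4 h after that shift. Both libraries are thus from shifted cells, and an unshifted sample was not analysed here.

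The symbols are those of the best hit in another green alga, Chlamydomonas reinhardtii, as the files give them. LSM7 (Cre03.g164100.t1.2), LSM2 (Cre10.g441950.t1.1) and SMP8 (Cre16.g662300.t1.1) were described only as members of the small nuclear ribonucleoprotein family. SMPF (Cre05.g241300.t1.1) was described as small nuclear ribonucleoprotein F, a subunit of the Sm core ring. The E value of the hit was 1e-52 for LSM2, 2e-46 for LSM7, 3e-45 for SMPF and 2e-23 for SMP8. Each of the 4 contigs had a best hit that no other listed contig shared.

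All 4 Sm and LSm contigs were listed as lower at 8 h, where 42.7% of the 234 listed contigs were. The 100 lower contigs were 1.28% of the 7823 tests to which the deposited FDR points. The lists were selected on the difference between these libraries, with every contig at least 2-fold apart and at a p under 0.05 by the authors' test. The direction and size of each difference are therefore what put the contigs there, and they are given as a description without a test. Each time had 1 library, so no difference has a replicate check. The library sizes behind the RPKM values, reads per kilobase of contig scaled to library size, were 674129 reads at 8 h and 556037 reads at 4 h. Which column of means is 8 h rests on the authors' ratio and its contrast alone, since the headings name neither time. Every 95% interval of a fold or level below covers counting error only and takes no account of that selection. In these bulk samples fewer cells of a state and less RNA per cell cannot be told apart.

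SMPF, the Sm core subunit, had the highest value of the 4 per unit of length in both libraries. Its counting interval excluded equal levels only against SMP8 at 4 h. The level of SMPF was 27.1 RPKM on 6 reads at 8 h, against 76.5 RPKM on 14 reads at 4 h. That was 2.83-fold lower at 8 h, with an interval of 1.02 to 8.98 that began just above equal levels. The 4 h level was the 13th highest of the 234 listed contigs in that library. Of these, 134 were listed as higher at 8 h, so selection favours a high rank at 4 h for a lower contig.

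LSM7 and LSM2 are subunits that the nuclear and the cytoplasmic LSm rings have in common. LSM7 stood at 8.41 RPKM on 3 reads at 8 h, against 40.8 RPKM on 12 reads at 4 h. It was 4.85-fold lower (1.31 to 26.8), the largest difference of the 4 and the 10th largest among the 100 contigs of the lower list. LSM2 stood at 18.1 RPKM on 5 reads at 8 h, against 39.6 RPKM on 9 reads at 4 h. It was 2.18-fold lower (0.657 to 8.29), near the 2-fold limit of the lists, and the interval included equal levels. Contigs outside that limit were not analysed here.

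The levels of the LSm pair were set against each other within each library, since both proteins occupy the same rings. The level of LSM7 over that of LSM2 was 0.464 (interval 0.0720 to 2.38) at 8 h and 1.03 (0.399 to 2.77) at 4 h. The intervals overlapped over most of their length, so a change in the balance of the pair was not detectable at this depth.

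SMP8 stood at 9.46 RPKM on 4 reads at 8 h, against 25.8 RPKM on 9 reads at 4 h. It was 2.73-fold lower (0.761 to 12.1), with equal levels inside the interval. It had the lowest level of the 4 at 4 h, while LSM7 had the lowest at 8 h. At 4 h SMPF exceeded SMP8 2.96-fold per unit of length (1.20 to 7.76). The other 5 pairs at 4 h, and all 6 pairs at 8 h, had intervals that included equal levels. Apart from SMPF over SMP8 at 4 h, the order of the 4 contigs was thus not resolved.

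**Figure D1:**
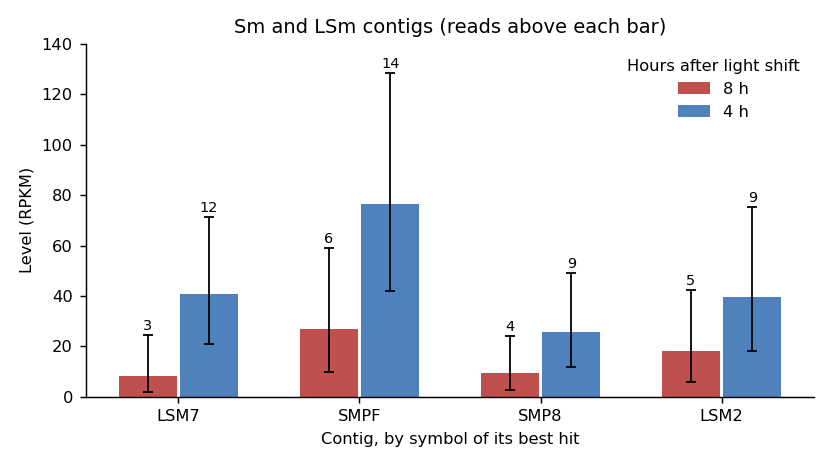
Levels of the Sm and LSm contigs in RPKM at 8 h (red, left) and 4 h (blue, right), 1 library each, with 95% exact Poisson intervals and the number of reads above each bar. Every 8 h bar is below its 4 h bar, from 8.41 against 40.8 RPKM for LSM7 to 18.1 against 39.6 RPKM for LSM2, and the intervals of each pair of bars overlap.

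Pooling the contigs narrowed the interval. The 4 contigs together held 18 reads at 8 h and 44 at 4 h, or 26.7 CPM at 8 h and 79.1 CPM at 4 h, reads scaled to library size without regard to length. The pooled level was 2.96-fold lower at 8 h (interval 1.68 to 5.45), a log2 ratio of -1.57. That value lay inside the interval of each of the 4 contigs. The pool was spread over its members: SMPF gave 33.3% of the reads at 8 h and 31.8% at 4 h, and LSM7 16.7% and 27.3%. LSM2 supplied 27.8% at 8 h and 20.5% at 4 h. Leaving out LSM7 gave a pooled fold of 2.59, and leaving out LSM2 gave 3.26. The pool adds precision but no independence from the selection, since each contig entered it by being lower. The median log2 ratio of the 4 was -1.47, beside -1.42 over the other 96 contigs of the lower list.

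**Figure D2:**
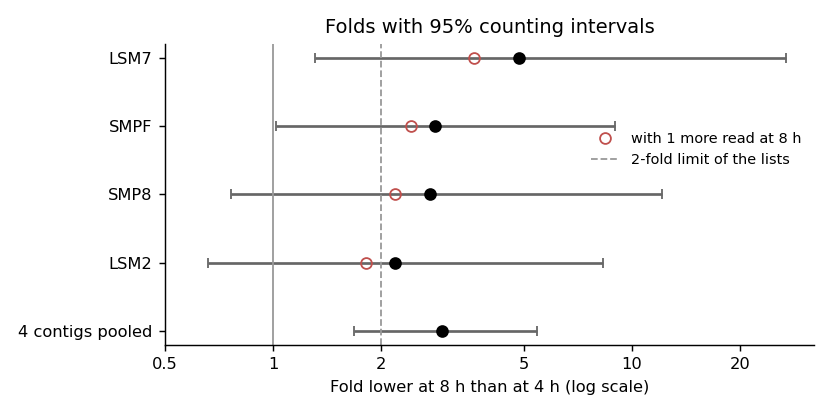
Fold lower at 8 h than at 4 h for each Sm and LSm contig and for the pool, on a log scale, with 95% exact counting intervals (filled points) and, for each contig, the fold with 1 more read at 8 h (open points). The pool sits at 2.96 with its interval above 1, and with 1 more read LSM2 falls below the dashed 2-fold limit.

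The step of a single read shows how finely these folds are resolved. With 1 more read at 8 h, LSM2 would have been 1.82-fold lower, below the limit of the lists. SMP8 would have been 2.18-fold lower, SMPF 2.42-fold and LSM7 3.64-fold. With 1 read fewer at 4 h LSM2 would have been 1.94-fold lower, and the other contigs stayed above 2-fold.

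What the 4 contigs shared, apart from the names and the direction that chose them, was small size. Their lengths were 329 bases for SMPF, 409 for LSM2, 529 for LSM7 and 627 for SMP8, and the median of the other 230 listed contigs was 1108. SMPF was the second shortest of all 234, LSM2 the fifth, LSM7 the 17th and SMP8 the 29th. Among the 32 other listed contigs under 700 bases, 43.8% were lower at 8 h, close to the 41.7% of all 230 others. The Sm and LSm contigs also held few reads, 13 to 20 over both libraries, against a median of 21.0 for the other listed contigs. At 8 h the level per length of SMPF was above the median of the other listed contigs, 18.4 RPKM, and those of LSM2, SMP8 and LSM7 were below it. At 4 h all 4 were above the median of the others, 14.4 RPKM. The others include the 134 contigs listed as higher at 8 h, so selection enters both comparisons. The other 96 lower contigs had medians of 8.62 RPKM at 8 h and 23.2 RPKM at 4 h. Against these, LSM7 was below at 8 h, and every other level of the 4 contigs was above. The 14 other lower contigs under 700 bases had higher medians, 33.8 RPKM at 8 h and 95.9 RPKM at 4 h. All 4 Sm and LSm contigs were below these medians at both times. On a short contig 1 read is worth more RPKM: at 4 h 1 read was worth 5.47 RPKM on SMPF and 2.87 RPKM on SMP8.

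That scale entered the authors' test. For the 4 contigs, treating RPKM values as Poisson counts in a Wald test gave the p-values of the authors' deposited table to within 0.142%. SMPF had 20 reads over both libraries but a summed level of 103.6 RPKM, 5.18 RPKM for each read, and the median of the other listed contigs was 1.48. The ratio of summed RPKM to reads was 4.12 for LSM2, 3.28 for LSM7 and 2.71 for SMP8. The standard error of the natural log ratio of SMPF was 0.224 when taken from RPKM and 0.488 when taken from reads. For LSM2 these errors were 0.284 and 0.558. The authors' deposited table gives p = 3.34e-06 for SMPF, 3.05e-05 for LSM7, 0.00593 for LSM2 and 0.00827 for SMP8. The step-up FDR in the authors' deposited table was 9.33e-05 for SMPF, 0.000705 for LSM7, 0.0586 for LSM2 and 0.0758 for SMP8. SMPF thus had a smaller deposited p than LSM7, although its difference was smaller and its counting interval nearly reached equal levels.

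**Figure D3:**
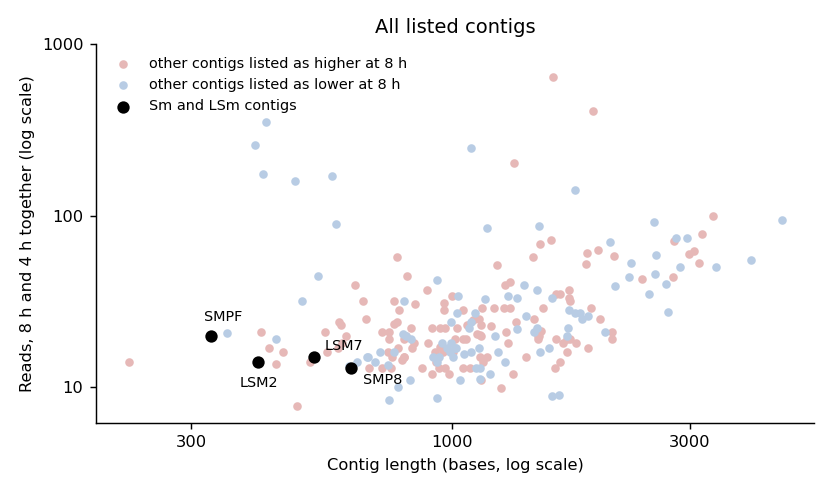
Reads of every listed contig, 8 h and 4 h together, against contig length in bases, both on log scales, with the Sm and LSm contigs in black. The 4 black points lie between 329 and 627 bases and between 13 and 20 reads, at the short end and toward the lower edge of the reads.

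The raw total of each of the 4 contigs was a whole number, and so were its recovered reads in both libraries, within 0.001 reads. Of the 230 other listed contigs 157 had whole totals by the same tolerance, and the rest had fractional ones. SMPF, SMP8 and LSM2 were each the 1 transcript of their assembled locus, as were 133 of the 234 listed contigs. LSM7 was transcript 149 of a locus with 209 transcripts, and 1 of 2 listed contigs from loci of over 100 transcripts. Such a locus joins many sequences in the assembly, and its part in the value of LSM7 was not tested.

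Other genes of RNA processing were searched for with 6 further keyword lists. No other listed contig matched the words for splicing factors, for ribosome biogenesis, for transfer RNA processing and RNA modification, or for organelle RNA. That holds for the wording and for the lists, and says nothing of contigs outside them. The list of RNA helicases and RNA-binding proteins held 7 contigs, 5 higher and 2 lower at 8 h, with a median log2 ratio of 1.04, beside 57.3% of all listed contigs that were higher. Each of these 7 was longer than the longest Sm or LSm contig, from 749 to 1618 bases.

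RBM8A had the largest difference among the higher ones. Its human namesake is a core protein of the exon junction complex, which is left on messenger RNA after splicing. RBM8A stood at 38.3 RPKM at 8 h against 8.55 RPKM at 4 h, 4.48-fold higher (1.38 to 16.6), on 19.8 and 3.64 recovered reads. These reads were fractional and were rounded to whole numbers for the interval. The source of the fractions was not tested. An RRM family protein, with the RNA recognition motif, was 2.06-fold higher (1.04 to 4.21), at 58.1 RPKM against 28.3 RPKM. A KH domain protein was 2.31-fold higher (0.786 to 8.19) and a contig described as RNA binding 2.20-fold higher (0.818 to 6.86). CSP41b, a chloroplast RNA-binding protein, was 2.06-fold higher (0.956 to 4.81) on 25 reads against 10.

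On the lower side, a contig whose best hit was a defense-related RNA-binding protein stood at 1.02 RPKM at 8 h against 25.4 RPKM at 4 h. Its recovered reads were fractional, 0.731 and 14.9, and its fold from the deposited levels was 24.8. The interval of 2.80 to 766 was taken from these reads rounded to whole numbers, so it does not belong exactly to that fold. A CCCH zinc finger protein with an RNA-binding domain was 2.02-fold lower (0.828 to 5.24), at the limit of the lists. In the list for messenger RNA ends, export and decay, 1 contig matched, a ribonuclease H-like protein at 2.22-fold lower (0.753 to 7.32). Whether the Sm and LSm contigs differ in direction from the RNA-binding ones was not tested, since the direction chose which list each contig was in.

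**Figure D4:**
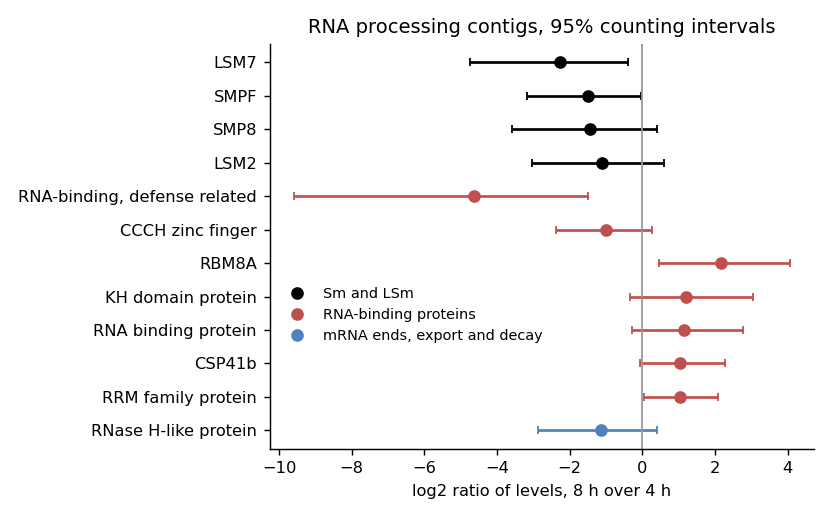
log2 ratio of levels, 8 h over 4 h, for the Sm and LSm contigs (black) and the contigs of 2 other RNA processing lists (red and blue). Bars are 95% exact counting intervals, taken from reads rounded to whole numbers. All 4 black points are left of 0, and 5 of the 7 RNA-binding contigs are right of it.

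The raw totals of the Sm and LSm contigs held reads beyond the 8 h and 4 h libraries, a measure that did not choose them. Of 75 raw reads 13 belonged to neither (17.3%), against 15.2% over the other 230 listed contigs and 20.7% over the other 96 lower ones. Under 700 bases the share was smaller, at 6.62% over the 32 other listed contigs and 5.76% over the 14 other lower ones. Contigs with many reads weigh most in these shares, and the differences were not tested. These extra reads resolved into 2 further libraries, called A and B here, that the labels used here do not describe. In 21 contigs with exactly 1 extra read, that read implied a library of 178820 reads in 15 contigs and of 241497 reads in 6. With these sizes, all 161 contigs with whole totals, by the tolerance given above, gave whole reads in A and B within 0.05 reads. The largest of the 4 libraries matched the deposited maximum within 0.1 read in all 234 contigs.

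Across all 4 libraries the Sm and LSm contigs together had 26.7 CPM at 8 h (exact Poisson interval 15.8 to 42.2) and 79.1 CPM at 4 h (57.5 to 106.2). They had 28.0 CPM in A (9.08 to 65.3) and 33.1 CPM in B (14.3 to 65.3). The intervals of A and B overlapped those of both time points. The other 96 lower contigs summed to 1938 CPM at 8 h, 5014 CPM at 4 h, 4531 CPM in A and 1081 CPM in B. Their sum in A lay near the 4 h value and in B below the 8 h value. All 234 listed contigs together summed to 7313 CPM at 8 h, 7068 CPM at 4 h, 6559 CPM in A and 1731 CPM in B. The sum of the whole lists was thus also lowest in B. Whether the Sm and LSm contigs differ from the other lower contigs in A and B was not tested. LSM7 had 3 reads in A and 1 in B, or 31.7 and 7.83 RPKM. SMP8 had 1 read in A and 5 in B, or 8.92 and 33.0 RPKM, so that its level in B was above its 25.8 RPKM at 4 h, within counting error. SMPF had 1 read in each. LSM2 had 1 read in B and 0 in A, and a count of 0 there allows up to 3 reads, or a level of up to 41.0 RPKM. The two-sided 95% Poisson interval drawn for that count ends higher, at 50.4 RPKM. As A and B carry no condition, these values are a description, and no difference between conditions can be read from them.

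**Figure D5:**
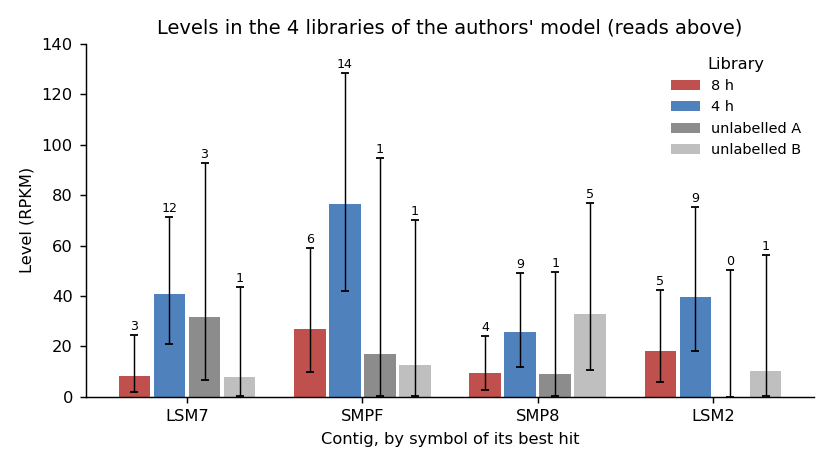
Levels of the Sm and LSm contigs in RPKM in the 8 h, 4 h and 2 unlabelled libraries, with 95% exact Poisson intervals and the reads above each bar. The 4 h bar is the highest for LSM7, SMPF and LSM2, at 40.8, 76.5 and 39.6 RPKM, while for SMP8 library B, at 33.0 RPKM on 5 reads, is above the 25.8 RPKM at 4 h.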

How the data were processed

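Stranded mRNA libraries were prepared from total RNA (TruSeq), per the labels' protocols. Partek is named in the submitters' processing notes. The aligner, assembler and reference remain not given in the sources used here. RPKM is the unit of the authors' deposited means. Their headings name neither sample, and the numerator and denominator of the ratio in the contrast 8 vs 4 were taken as 8 h and 4 h. The authors' deposited table also holds that ratio, its natural log, a signed fold score, a p-value, a step-up FDR and a raw total, an estimated count over all libraries in the model. Dividing FDR by p placed 67.5% of 194 contigs at a whole rank among 7823 tests, of which the 100 lower contigs are 1.28%.

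Reads were recovered as RPKM times length times library size, which the raw maximum gives within 0.01% in 134 higher and 97 lower contigs. Fold intervals were derived from 95% Clopper-Pearson limits on the share of reads at 8 h, with fractional reads rounded to whole numbers. Their coverage was checked on simulated reads that were not selected as the lists were. Coverage for contigs that passed the limits of the lists was not checked. Reads in A and B were solved from the raw and RPKM totals. Named genes were the 4 contigs and all matches of the keyword lists. The members, lists, length limit of 700 bases and alternatives were chosen with earlier results of these data known. Alternatives were pseudocounts, other ways of pooling, left-out contigs and stricter limits. The labels name no molecular identifiers, so copies made by PCR may be counted. Computation used scipy 1.17.1 and numpy 2.4.6 with pandas 2.3.3 in Python 3.11.15, and plots used matplotlib 3.10.9.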

Additional observations from a re-analysis of the deposited data

Results flagged for a closer look

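The raw totals of the Sm and LSm contigs held 13 reads together that came from neither the 8 h nor the 4 h library, above the limit of 3 reads set by a count of 0. Such reads are common in the lists: 208 of all 234 listed contigs had over 0.5 of a read there, 98 had over 3, and they were 15.2% of all raw reads. By contig, SMP8 had 6 such reads and LSM7 had 4, while SMPF had 2 and LSM2 had 1. They lie in the 2 unlabelled libraries, and their source was not tested.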

How the results depend on the processing

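The pooled fold ran from 2.59 to 3.50 over 10 alternatives. Every contig stayed lower at 8 h under each pseudocount and with 1 more read, but neither change could have reversed a direction. A pseudocount adds the same amount to both levels. A contig at least 2-fold lower on more than 1 read stays lower with 1 more. As the direction chose the contigs, leaving some out could not reverse the pool either. Only the sizes of the folds could change here, and the selection bounded these too. As each contig was at least 2-fold lower, leaving some out could not take the pool below 2-fold. The range of the pooled fold is thus a description. Of 4 lower Sm and LSm contigs, 1 was at least 4-fold lower, 2 had at least 10 reads at 4 h and 2 had an authors' FDR under 0.05. Of 5 higher RNA-binding contigs, 1 was at least 4-fold and 2 had an FDR under 0.05, and of the 2 lower ones, 1 and 1. The contig of messenger RNA decay was left out by both limits (0 and 0). These limits keep fewer contigs by construction. The shares of all listed contigs that pass them are not given here, so the counts show nothing particular to the Sm and LSm or RNA-binding contigs. The addition of a read was chosen after seeing the data. No paired analysis was possible because each time point had 1 library. Depth limits every value, at 13 to 20 reads a contig over both libraries.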
